A study of Mus musculus with 48 samples.

Results

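Epidermal stem cells of aged and young mice were compared at one time of day, ZT4, which is by convention 4 h after the lights come on. The comparison used the 8 arrays whose titles name this time, 4 from aged and 4 from young mice, out of 48 arrays in the series. All mice were wild-type females of the strain C57B6/J, and the tissue was epidermis. The young mice were 8 weeks old and the aged mice 102 to 116 weeks old, and each array held the total RNA of cells labelled as epidermal stem cells. The other 40 arrays, from both ages at ZT0, ZT8, ZT12, ZT16 and ZT20, served to ask whether a difference at ZT4 departed from the age difference at the rest of the day. Each mouse gave 1 array, so no animal was followed through the day, and the p-values measure only the spread between these mice. The labels used here do not say how these cells were separated from the rest of the epidermis.

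Epidermal stem cells sit in the basal layer and in the hair follicle, divide to renew the skin, and anchor to the basement membrane. They carry a circadian clock in which the proteins Clock and Arntl (Bmal1) switch on genes through E-box sequences, and the Per and Cry proteins feed back on them. Per1 is also switched on by the glucocorticoid receptor, together with genes such as Fkbp5 and Tsc22d3. In mice, which are active at night, ZT4 falls into the resting phase.

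The label was checked against marker genes, whose levels on different probe sets are not comparable with each other. Among the keratins of basal cells, Krt5 stood at a log2 level of 12.69 ± 0.04 (SD, n = 4) in aged and 12.61 ± 0.15 in young mice, and Krt14 at 12.46 ± 0.04 and 12.38 ± 0.06. None of 10 basal keratinocyte markers was called different at ZT4 (limma, Benjamini-Hochberg, 2 at an unadjusted p under 0.05), where 7.76% of all genes tested were called. For markers of suprabasal cells, the mean of 11 genes was 8.65 to 8.91 in aged and 8.57 to 8.87 in young arrays. Of 10 blood vessel markers, 4 passed the filter on dim genes, with a mean of 4.33 to 4.52 in aged and 4.34 to 4.52 in young arrays. Among the 8 arrays, young replicate 1 stood apart. Its median correlation with the other young arrays was 0.984, against 0.990 to 0.992 for the rest within their own age, and its array weight was 0.287. No array measure (median, actin and Gapdh 3' minus 5' signal, hybridisation controls, background probes) passed a test between the ages, with adjusted exact permutation p of 0.476 to 0.886. With 4 against 4 arrays the smallest unadjusted p is 0.0286, so this test had little power to find a difference in quality.

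Of 12823 genes tested at ZT4, 995 were called different between aged and young mice at an adjusted p under 0.05 (limma, Benjamini-Hochberg), or 7.76%. An unadjusted p under 0.05 was reached by 2825 genes, or 22%. Aged cells had 451 genes higher (3.52%) and 544 lower (4.24%). Rises were the larger changes, with 112 genes at least 2-fold higher and 45 at least 2-fold lower. In 417 of the genes called higher and 525 of those called lower, the 4 aged and 4 young arrays did not overlap. Among all genes tested, the aged arrays lay above all young arrays in 6.14% and below them in 8.32%. In bulk RNA of this kind, fewer cells of a type and less RNA per cell cannot be told apart. The counts depended on single mice. Without aged replicate 1 they were 290 higher and 339 lower, without aged replicate 2 they were 259 and 292, and without young replicate 3 they were 276 and 357. Without young replicate 1, the array that stood apart, they were 588 and 618.

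The same 8-array comparison called fewer genes at every other time: 65 at ZT0, 370 at ZT8, 45 at ZT12, 648 at ZT16 and 117 at ZT20. At ZT16, 221 genes were called in the same direction as at ZT4, which is 22.2% of the ZT4 calls and 34.1% of the ZT16 calls. At ZT8 the shared calls numbered 105, or 10.6% of the ZT4 calls and 28.4% of the ZT8 calls. These counts compare different mice, and a difference between 2 counts was not tested.

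The largest estimated rise at ZT4 was that of Cadps2. This gene, which primes dense-core vesicles for release, stood at log2 values of 8.08, 7.53, 6.00 and 7.10 in the aged mice and at 4.02, 4.01, 3.85 and 3.87 in the young (replicates 1 to 4 in each case, as in all lists of values here). All 4 aged mice were above all 4 young ones, and the young mean of 3.94 lay under the limit of 3.96 below which genes were left out as dim. The estimated rise was 3.24 ± 0.33 on the log2 scale (SE, limma adjusted p = 0.000269), and because the young level is so dim its size and rank are not exact. Zmynd15, a zinc finger protein studied in male germ cells, read 8.57, 8.80, 8.03 and 8.20 in aged and 5.88, 5.99, 5.24 and 5.49 in young mice. Its groups lay far apart, and the rise was 2.75 ± 0.20. Neither gene departed from its age difference at the other times, which averaged 2.74 for Cadps2 and 2.33 for Zmynd15.

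Krt6a, the keratin that keratinocytes make when wounded or activated, read 9.96, 9.95, 8.81 and 8.83 in aged and 7.42, 7.29, 5.95 and 6.78 in young mice. The aged group was higher throughout, by 2.52 ± 0.35 (adjusted p = 0.00176), with 2 aged mice about 1 log2 unit above the other 2. Nppb, which encodes B-type natriuretic peptide, showed a similar split. Its aged values were 8.82, 9.15, 6.30 and 7.11 and its young values 5.20, 5.11, 5.39 and 5.25, a rise of 2.61 ± 0.50. The calcium-activated potassium channel Kcnn4 was higher by 2.5 ± 0.34, the protein C receptor Procr by 2.36 ± 0.26, the RNase-family gene Zc3h12c by 2.29 ± 0.30 and the receptor Gpr35 by 2.18 ± 0.16. For Krt6a, Nppb, Kcnn4, Procr, Zc3h12c and Gpr35 the departure from the other times did not pass its test.

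**Figure D1:**
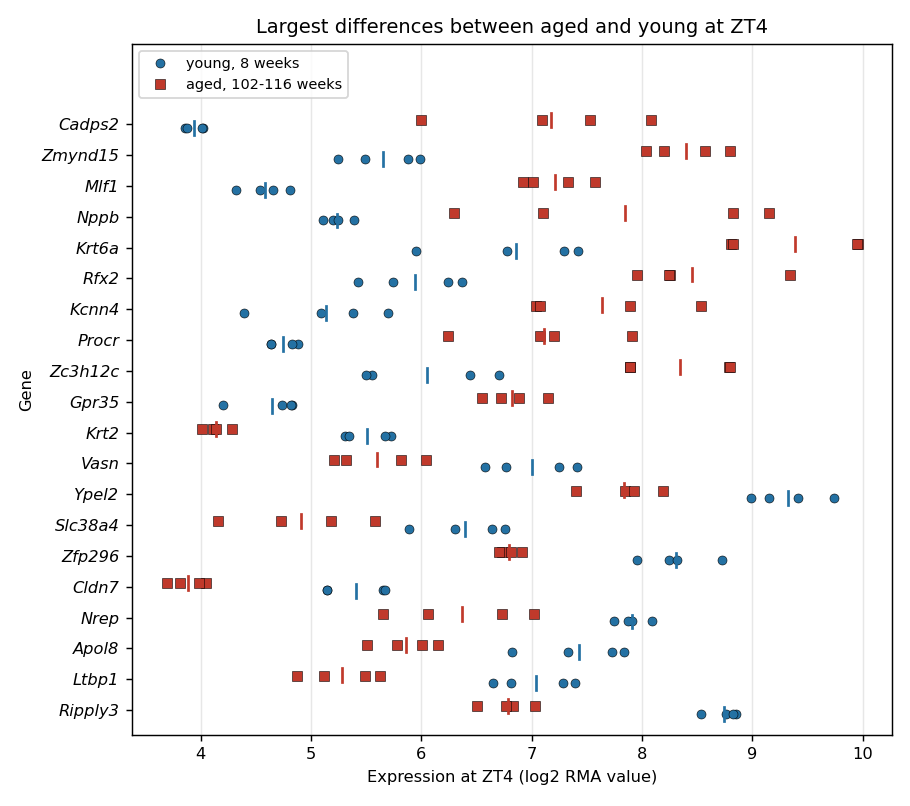
Log2 expression in each of the 8 mice at ZT4 (x axis) for the 10 largest rises and 10 largest falls with groups that do not overlap (y axis). Squares are aged mice, circles young mice and short bars the group means, and Cadps2 at the top differs by 3.24 while Ripply3 at the bottom differs by -1.96.

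The largest fall was that of Ripply3, a co-repressor of T-box transcription factors (GRCm38, chromosome 16, 94328422 to 94336935). It read 6.50, 6.83, 6.77 and 7.03 in aged and 8.85, 8.53, 8.76 and 8.82 in young mice. The groups were tight and separate, and the difference was -1.96 ± 0.13 (adjusted p = 2.56e-05), or 3.89-fold lower. Ltbp1, which binds latent TGF-beta in the matrix, read 5.12, 4.88, 5.49 and 5.62 in aged and 7.28, 7.39, 6.81 and 6.65 in young mice, a difference of -1.76 ± 0.20. The 2 other probe sets of Ltbp1 were dim (means of 3.71 and 3.11) and differed by 0.07 and -0.05. At the other times Ltbp1 was lower by a mean of -1.65, so its fall was not particular to ZT4 by the test.

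Slc38a4, an amino acid transporter, differed by -1.49 ± 0.27, the zinc finger gene Zfp296 by -1.52 ± 0.15, Nrep by -1.54 ± 0.24, Ypel2 by -1.48 ± 0.19 and Vasn, which encodes a TGF-beta binding protein, by -1.41 ± 0.22. The tight junction gene Cldn7 differed by -1.52 ± 0.15, but its aged mean of 3.88 lay under the limit for dim genes, so the size is not exact. None of these passed the departure test. Cldn7 (-0.82 ± 0.23, adjusted p = 0.0533) and Ypel2 (-0.93 ± 0.26, adjusted p = 0.0617) came closest.

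To find differences particular to ZT4, the age difference at ZT4 was set against the mean age difference at the other 5 times in a fit of all 48 arrays. A total of 177 genes departed (1.38%), 73 upward (0.569%) and 104 downward (0.811%). Of these, 136 (1.06% of all genes) were also called at ZT4 itself. They comprised 95 genes specific to ZT4 (0.741%), where the mean of the other times passed no test of its own (a single other time may still show a like difference), genes that were larger at ZT4 in the same direction (17 higher and 16 lower), and 8 that went the opposite way at the other times. The 95 specific genes were 38 higher and 57 lower in aged cells, and 23 and 32 of them departed from every one of the other 5 times taken singly, each at an unadjusted p under 0.05. By contrast, 859 of the 995 genes called at ZT4 (86.3%) showed no departure that passed the test, and 509 (51.2%) were also called in the same direction for the mean of the other times. The specific genes numbered 13 higher and 30 lower without aged replicate 1, 7 and 26 without aged replicate 2, 24 and 34 without young replicate 2, and 9 and 37 without young replicate 3. Without young replicate 4, 23 were higher. The departures fell to 36 upward and 49 downward without aged replicate 1, to 25 and 49 without aged replicate 2, and to 29 and 66 without young replicate 3, and the downward ones to 67 without young replicate 2.

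**Figure D2:**
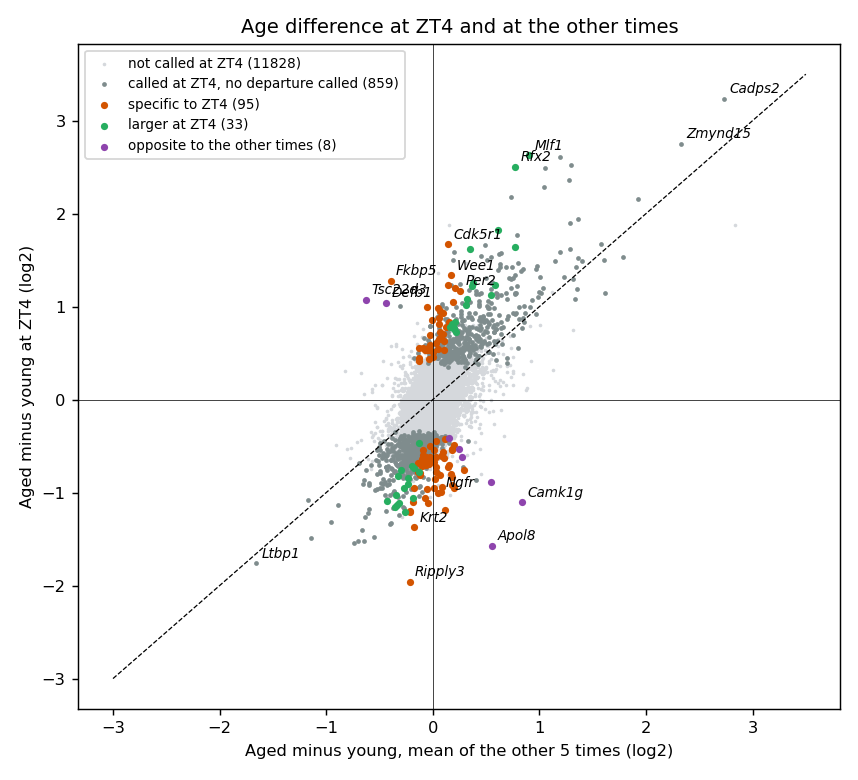
Age difference at ZT4 (y axis, log2) against the mean age difference at the other 5 times (x axis, log2) for 12823 genes, with colours for the outcome of the tests and a dashed line of equality. Most genes called at ZT4 are dark grey and share their sign with the other times, while 95 orange genes lie near 0 on the x axis and 8 purple genes lie in the quadrants of opposite sign.

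Among the falls specific to ZT4, Ripply3 had the most extreme estimate, departing by -1.74 ± 0.23 (adjusted p = 2.08e-05). Its age difference was -0.84 at ZT0, -1.96 at ZT4, 0.24 at ZT8, -0.26 at ZT12, 0.08 at ZT16 and -0.30 at ZT20, each with an SE of 0.21. The age difference of Ripply3 was therefore further below 0 at ZT4 than at each of the other times. Krt2, a keratin of the upper layers of the epidermis between follicles, read 4.11, 4.01, 4.14 and 4.28 in aged and 5.72, 5.30, 5.67 and 5.34 in young mice. The aged values were low in all 4 mice, near the limit for dim genes, and the difference of -1.37 ± 0.12 departed by -1.20 ± 0.23 (adjusted p = 0.00277). Krt2 was also lower in aged mice at ZT0 (-0.46) and ZT16 (-0.45), each with an SE of 0.21, and differed by -0.04 to 0.05 at the remaining times.

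Bcl2l11, which encodes the cell death protein Bim, read 7.83, 7.15, 7.25 and 7.07 in aged and 8.37, 8.63, 8.32 and 8.43 in young mice. No aged mouse reached the young range, the difference was -1.11 ± 0.16 and the departure -1.07 ± 0.19 (adjusted p = 0.00184). All 5 probe sets of Bcl2l11 were lower, by -0.51 to -1.11. Bbc3, a p53 target that encodes Puma, read 6.72, 6.86, 7.09 and 7.02 in aged and 7.96, 7.62, 7.84 and 7.44 in young mice. Its groups did not overlap, and it departed by -0.67 ± 0.13 from a mean of -0.12 at the other times. Both falls met the rule for specific to ZT4, but both genes were also lower in aged mice at ZT16. The age difference of Bcl2l11 was -0.24 at ZT0, 0.45 at ZT8, -0.14 at ZT12, -0.58 at ZT16 and 0.30 at ZT20 (SE 0.18 each). That of Bbc3 was -0.29 at ZT0, 0.03 at ZT8, 0.16 at ZT12, -0.43 at ZT16 and -0.07 at ZT20 (SE 0.12 each).

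A receptor and 2 transcription factors were further specific falls. Ngfr, the p75 neurotrophin receptor, read 7.0, 7.47, 7.21 and 7.92 in aged and 8.68, 8.31, 8.37 and 8.20 in young mice. The groups were separate at ZT4 (-0.99 ± 0.18), while at ZT8 the age difference was 0.56, a departure of -1.07 ± 0.18 overall (adjusted p = 0.000937). Foxq1, a forkhead factor known for its role in hair, differed by -1.0 ± 0.16 and departed by -1.06 ± 0.20. Irf4, a transcription factor of the interferon regulatory family, differed by -0.95 ± 0.16 and departed by -1.16 ± 0.27, a departure not called without aged replicate 2, young replicate 3 or young replicate 4. Over all 57 alternatives, the departure of Irf4 was lost in 4 (adjusted p up to 0.0985). Adam1a, a gene of the ADAM metalloprotease family, differed by -1.19 ± 0.15 and the crystallin gene Crybb3 by -0.92 ± 0.16. Adam1a was also lower in aged mice at ZT0, by -0.70 ± 0.22, and its ZT4 value departed from 4 of the other 5 times. The second probe set of Adam1a was dim (mean 3.59) and differed by -0.10.

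Apol8 and Camk1g changed sign through the day. Apol8, an apolipoprotein L gene, read 6.15, 6.00, 5.78 and 5.51 in aged and 7.33, 7.84, 6.82 and 7.73 in young mice at ZT4, lower in every aged mouse. Its age difference was -1.57 at ZT4 and -1.08 at ZT0, but 1.97 at ZT8 and 1.83 at ZT20. Camk1g, a calcium-dependent kinase, read 6.07, 6.31, 6.49 and 6.38 in aged and 7.21, 7.65, 7.11 and 7.70 in young mice, a difference of -1.10 at ZT4 against 1.82 at ZT8 and 1.97 at ZT20. The departures were -2.13 ± 0.39 for Apol8 and -1.94 ± 0.33 for Camk1g, the furthest below 0 of all genes named here.

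Upward departures were led by Rfx2, a transcription factor of ciliary genes. Rfx2 read 7.96, 9.34, 8.25 and 8.24 in aged and 6.37, 5.74, 5.42 and 6.24 in young mice. Aged mice were higher throughout, by 2.51 ± 0.28, and the difference exceeded the mean of the other times (0.77) by 1.74 ± 0.35 (adjusted p = 0.00562). The other 2 probe sets of Rfx2 were dim (means of 4.13 and 3.58) and differed by 0.31 and 0.29, and with the mean of all 3 the departure was not called (adjusted p = 0.278). Mlf1, named for a fusion gene of myeloid leukaemia, read 7.58, 7.33, 7.01 and 6.92 in aged and 4.32, 4.66, 4.54 and 4.81 in young mice, a rise of 2.63 ± 0.16 (adjusted p = 1.96e-05). Its rise was also large at ZT0 (1.86) and ZT16 (1.83) and near 0 at ZT8 (0.06), so Mlf1 was larger at ZT4 than the mean of the other times and not confined to it.

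Cdk5r1, which encodes the activator p35 of the kinase Cdk5, read 8.30, 8.13, 6.99 and 7.40 in aged and 6.24, 6.01, 5.73 and 6.16 in young mice. The aged group was higher throughout, all 4 probe sets of the gene had positive differences (1.06 to 1.67), and the departure was 1.53 ± 0.34, with a difference of 1.0 at ZT0. That departure was not called without aged replicate 1 or aged replicate 2 (adjusted p up to 0.0584 with 1 array left out). Wee1, the kinase that holds back entry into mitosis and a known output of the clock, read 10.43, 10.72, 10.61 and 10.70 in aged and 9.26, 9.34, 8.73 and 9.76 in young mice. The aged values were close together and all above the young ones, by 1.34 ± 0.18, and the difference departed by 1.17 ± 0.21 (adjusted p = 0.00172), a call kept with every array left out. The deubiquitinase gene Otud7a (1.62 ± 0.33) and the glycosyltransferase gene Galnt3 (1.83 ± 0.19) were larger at ZT4, and the beta-defensin gene Defb1 (1.04 ± 0.20) was opposite to a mean of -0.44 at the other times. The departure of Otud7a was not called without aged replicate 1 or aged replicate 2, and that of Galnt3 without any of 16 of the 48 arrays taken singly.

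**Figure D3:**
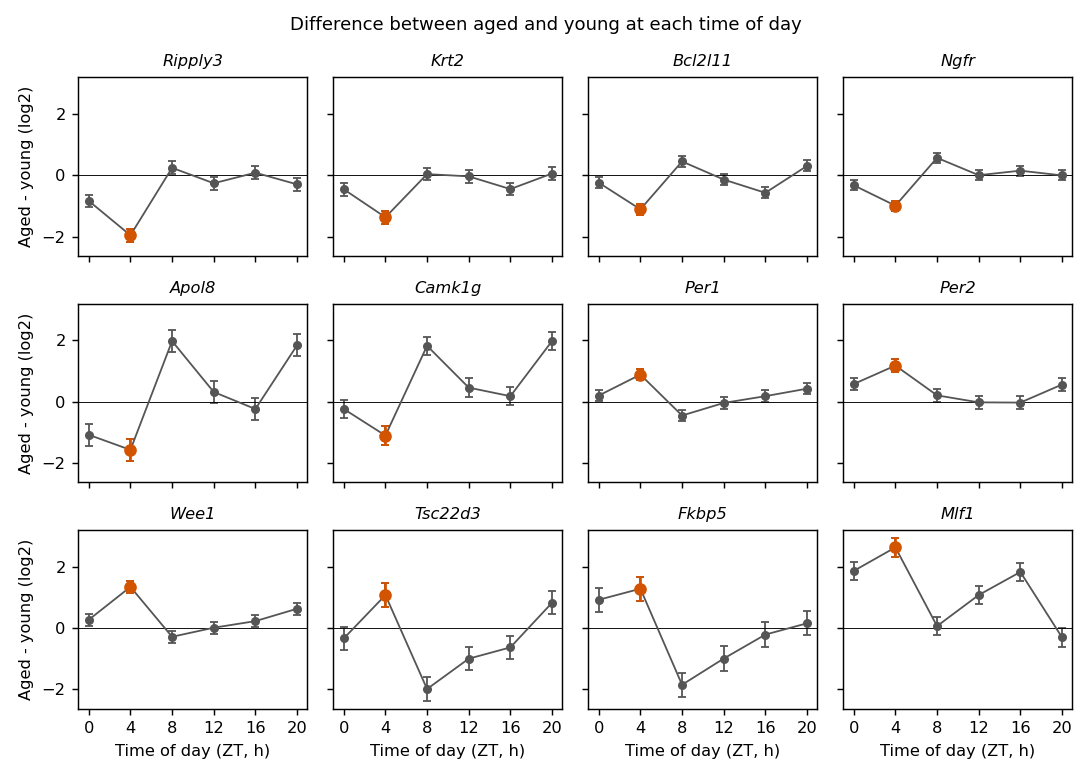
Age difference (aged minus young, log2, y axis) at each time of day (x axis, h) for 12 genes that departed at ZT4, with bars for the SE of the 48-array fit and ZT4 in orange. In the first 6 panels the ZT4 value is the lowest of the day, from -0.99 for Ngfr to -1.96 for Ripply3, and in the last 6 it is the highest, from 0.88 for Per1 to 2.63 for Mlf1.

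In the core clock, 2 of 16 genes tested rose at ZT4 and none fell, against 3.52% higher and 4.24% lower among all genes tested. Both were Per genes. The median difference of the list was -0.02 on the log2 scale, as over all genes tested (-0.02). Per1, which represses the clock in its feedback loop (GRCm38, chromosome 11, 69095108 to 69109965), read 10.01, 10.15, 10.20 and 9.92 in aged and 9.47, 8.97, 8.72 and 9.61 in young mice. The lowest aged mouse was above the highest young one, and the rise was 0.88 ± 0.18 (adjusted p = 0.0124), or 1.84-fold. Per2, its paralogue with the same role, read 6.96, 7.09, 5.92 and 6.28 in aged and 5.56, 4.97, 5.52 and 5.50 in young mice. Aged mice were again higher throughout, by 1.17 ± 0.24 (adjusted p = 0.0122), or 2.25-fold, and the second probe set of Per2 differed by 2.26. Both rises at ZT4 were called under every alternative tried.

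Both also met the rule for specific to ZT4, but the estimates of both genes were above 0 at ZT0 and ZT20 as well. The age difference of Per1 was 0.20 at ZT0, -0.45 at ZT8, -0.04 at ZT12, 0.18 at ZT16 and 0.42 at ZT20, and it departed by 0.82 ± 0.20 (adjusted p = 0.0242). For Per2 the differences were 0.57 at ZT0, 0.20 at ZT8, -0.02 at ZT12, -0.03 at ZT16 and 0.56 at ZT20, with a departure of 0.92 ± 0.23 (adjusted p = 0.0268). These departures were not called in every fit with 1 array left out. That of Per1 was not called without aged replicate 1, 2 or 3 or young replicate 2 or 3 (adjusted p up to 0.132), and that of Per2 without aged replicate 1, aged replicate 2 or young replicate 2 (adjusted p up to 0.155). Over all 57 alternatives, the departure of Per2 was lost in 4 (adjusted p up to 0.188). Per3, the remaining Per gene, differed by -0.02 ± 0.21.

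The other clock genes were not called at ZT4. Arntl, the positive arm, read 7.37, 7.54, 8.21 and 7.82 in aged and 7.17, 8.68, 7.88 and 8.24 in young mice, with wide overlap and a difference of -0.26 ± 0.28. Its partners Clock and Npas2 differed by 0.35 ± 0.17 and -0.19 ± 0.14. Among the repressors, Cry1 differed by -0.36 ± 0.21, Cry2 by -0.03 ± 0.17 and Nr1d2 by -0.02 ± 0.14. The output factors Dbp, Tef, Hlf and Nfil3 differed by -0.36 ± 0.29, -0.16 ± 0.19, 0.01 ± 0.15 and -0.35 ± 0.11. For Nfil3 all 4 aged mice were below all 4 young ones, but its adjusted p was 0.087. Rora, an activator of Arntl, had aged values above all young ones (0.47 ± 0.15, adjusted p = 0.0826), and its 4 other probe sets differed by 0.67, 1.08, -0.05 and -0.34. Bhlhe40, a repressor at E-boxes, differed by 0.38 ± 0.12 (adjusted p = 0.0869) and Ciart, another clock repressor, by 0.17 ± 0.15.

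Of 14 glucocorticoid-induced genes tested, 4 rose at ZT4 and none fell (background 3.52% higher), with a median difference of 0.16. The 4 were Per1, Tsc22d3, Fkbp5 and Errfi1. Fkbp5 encodes a co-chaperone of the glucocorticoid receptor (GRCm38, chromosome 17, 28398753 to 28486149). It read 10.42, 9.82, 9.36 and 8.30 in aged and 8.47, 8.03, 8.17 and 8.11 in young mice. Aged replicates 1 to 3 were well above the young range and aged replicate 4 lay within it, for a rise of 1.28 ± 0.34 (adjusted p = 0.041). Tsc22d3, the glucocorticoid-induced leucine zipper (GRCm38, chromosome X, 140539528 to 140600522), read 9.89, 9.46, 9.76 and 8.77 in aged and 8.19, 8.01, 8.73 and 8.65 in young mice. Here too aged replicate 4 was the lowest aged mouse, just above the highest young one, and the rise was 1.07 ± 0.24 (adjusted p = 0.018).

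Errfi1, an inhibitor of EGF receptor signalling, rose by 0.67 ± 0.13. It showed no departure that passed the test (0.44 ± 0.19). Fkbp5 and Tsc22d3 stood out by their course through the day. Fkbp5 was higher in aged mice at ZT0 (0.92) and ZT4 (1.28) and lower at ZT8 (-1.85) and ZT12 (-0.99), a departure of 1.68 ± 0.43 at ZT4 (adjusted p = 0.0328). Tsc22d3 was higher in aged mice at ZT4 (1.07) and ZT20 (0.82) but lower at ZT8 (-1.98), ZT12 (-1.0) and ZT16 (-0.63), a departure of 1.70 ± 0.42 (adjusted p = 0.0227).

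Without aged replicate 1, without aged replicate 2 or without young replicate 2, the glucocorticoid count fell from 4 to 2 genes. The rise of Fkbp5 was not called without aged replicate 1, 2 or 3 or young replicate 2, 3 or 4 (adjusted p up to 0.121), and that of Tsc22d3 not without aged replicate 1, aged replicate 2 or young replicate 2. The departure of Fkbp5 was lost without those same 6 arrays (adjusted p up to 0.173), and that of Tsc22d3 without aged replicate 1, 2 or 3 or young replicate 1 or 2 (adjusted p up to 0.091). Of the members not called, Zbtb16 differed by 0.39 ± 0.14, Klf9 by 0.30 ± 0.12, Sgk1 by -0.37 ± 0.12, and Nfkbia, Cebpd, Dusp1, Sult1a1, Mt1, Ddit4 and Cdkn1a by -0.05 to 0.17. The 5 probe sets of Klf9 disagreed in sign, and the second probe set of Zbtb16 differed by 0.80.

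The fasting and fat-fuel list had 1 called member of 16, a fall, beside shares of 4.24% lower and 3.52% higher among all genes tested. Ppara, the nuclear receptor for fatty acids, read 7.59, 7.52, 7.61 and 7.75 in aged and 8.48, 8.24, 8.12 and 8.14 in young mice, lower in every aged mouse by -0.63 ± 0.11 (adjusted p = 0.00613). Pdk4, the kinase that holds back glucose oxidation, read 8.60, 6.78, 6.85 and 6.01 in aged and 5.44, 6.48, 5.25 and 5.63 in young mice. The groups overlapped, aged replicate 1 was far above the rest, and the difference of 1.36 ± 0.45 was not called (adjusted p = 0.0904). The other members, Lpin1, Cpt1a, Acadl, Acadm, Angptl4, Ucp3, Plin2, Plin4, Acot1, Acot2, Slc25a20, Fgf21, Ppard and Txnip, differed by -0.40 to 0.20. Second probe sets of Angptl4 (-0.72), Ppard (0.46) and Txnip (0.35) lay outside this range. Those of Acadl, Acot2, Lpin1, Slc25a20 and Ucp3 lay within it.

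**Figure D4:**
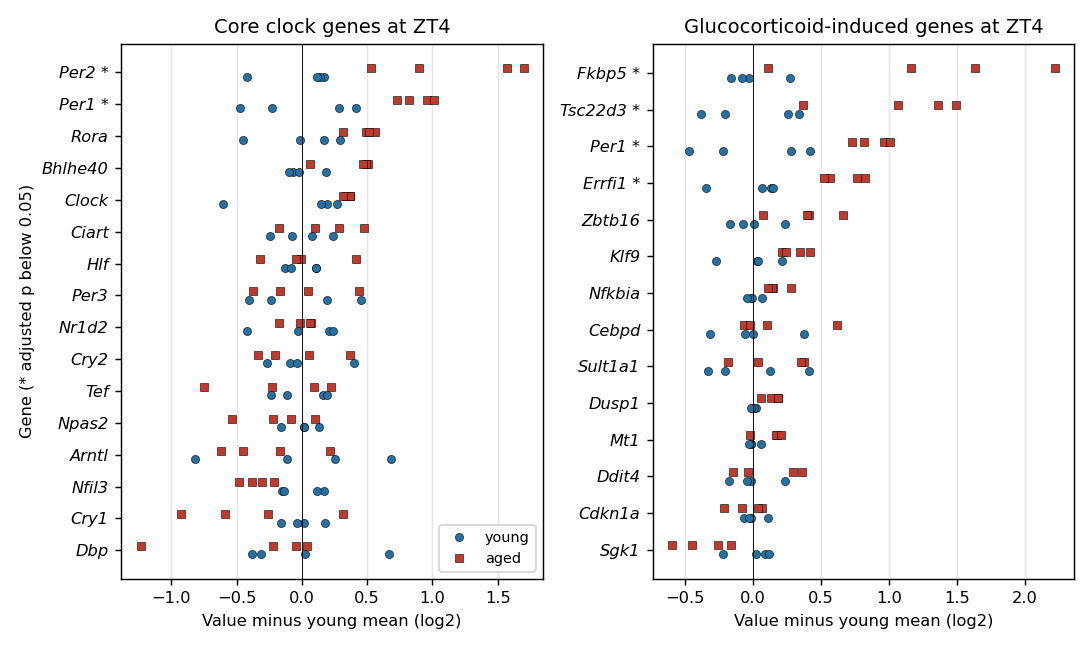
Value of each mouse at ZT4 minus the young mean (x axis, log2) for 16 core clock genes (left) and 14 glucocorticoid-induced genes (right), with squares for aged and circles for young mice and an asterisk for an adjusted p below 0.05. Per1 and Per2 are separate on the left, and on the right the aged squares of Fkbp5 spread from within the young range (8.30, with young mice up to 8.47) to 10.42.

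Promoters of the 3 genes of both lists that rose and departed at ZT4 and have an entry in the RefSeq table for GRCm38.p6 are shown here, since E-boxes and glucocorticoid response elements are the sites through which the clock and the receptor act. The sequences run from 250 bases before to 50 after an annotated start. The motifs searched on both strands were the E-box CACGTG, the D-box TTATGTAA, the glucocorticoid half-site TGTTCT and the ROR element TAGGTCA, and matches are in capitals.
Per1 (chr11:69098699-69098998, plus strand): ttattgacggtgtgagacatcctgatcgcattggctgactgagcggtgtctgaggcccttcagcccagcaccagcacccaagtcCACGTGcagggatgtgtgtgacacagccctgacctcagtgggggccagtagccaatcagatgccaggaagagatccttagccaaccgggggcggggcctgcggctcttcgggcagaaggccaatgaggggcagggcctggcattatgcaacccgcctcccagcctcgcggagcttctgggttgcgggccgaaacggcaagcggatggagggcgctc
Fkbp5 (chr17:28486100-28486399, minus strand): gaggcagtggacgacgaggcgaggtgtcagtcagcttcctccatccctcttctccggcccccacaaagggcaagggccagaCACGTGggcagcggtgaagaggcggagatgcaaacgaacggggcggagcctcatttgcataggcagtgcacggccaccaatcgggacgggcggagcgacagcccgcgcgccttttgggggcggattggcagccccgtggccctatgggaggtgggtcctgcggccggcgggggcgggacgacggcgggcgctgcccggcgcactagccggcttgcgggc
Tsc22d3 (chrX:140600473-140600772, minus strand): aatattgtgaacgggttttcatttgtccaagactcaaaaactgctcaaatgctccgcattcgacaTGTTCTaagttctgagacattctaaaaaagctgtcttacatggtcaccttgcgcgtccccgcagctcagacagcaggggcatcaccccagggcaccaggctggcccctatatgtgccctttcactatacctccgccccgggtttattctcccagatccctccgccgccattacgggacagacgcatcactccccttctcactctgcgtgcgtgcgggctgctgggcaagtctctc
Per1 held an E-box that begins 166 bases before the start and Fkbp5 one that begins 169 bases before it. Tsc22d3 held a glucocorticoid half-site 185 bases before its start. The second Per1 start and 2 further Tsc22d3 starts in the table held no match. Promoters on chromosomes 18 and Y were left out of all shares given here. Of all promoters that remained in the table, including those shown, 7.20% held an E-box and 19.0% the half-site. Counted by gene, these shares were 8.16% and 21.3%. By gene, an E-box was found for 11.4% of tested genes with an entry, 12.7% of those higher and 10.7% of those lower in aged cells, 18.5% of the specific rises (5 of 27) and 6.82% of the specific falls (3 of 44). The half-site was found for 15.3% of tested genes, 17.2% of those higher, 16.3% of those lower, 11.1% of the specific rises (3 of 27) and 11.4% of the specific falls (5 of 44). The windows of Mlf1, Rfx2, Krt2, Bcl2l11 and Ngfr held none of the 4 motifs.

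Of the inflammasome and inflammatory caspase genes, 5 of 10 were higher and none lower, with a median of 0.34. For this and the lists that follow, the shares of all genes tested were 3.52% higher and 4.24% lower. With the lower 50% of genes by mean left out, 3 of the list were called higher. Casp1, the protease that matures interleukins, read 7.53, 7.81, 7.62 and 7.95 in aged and 5.97, 6.64, 6.07 and 6.08 in young mice, a rise of 1.54 ± 0.15. Il18, one of its substrates, was under the limit for dim genes (3.96) in every young mouse, so the size of its difference is not exact. It read 4.74, 5.29, 4.89 and 4.96 in aged and 3.49, 3.34, 3.59 and 3.48 in young mice, an estimated rise of 1.49 ± 0.12. For both genes the aged and young mice were far apart. Casp4 rose by 1.5 ± 0.16, Casp12 by 1.59 and the alarmin Il33 by 0.54. No member of the list departed from its age difference at the other times, and the mean of those times was 1.79 for Casp1, 1.61 for Casp4 and 1.40 for Il18. Of the interferon-stimulated genes, 2 of 11 rose, Usp18 by 1.15 ± 0.16 and Oasl2 by 0.83 ± 0.20, and 1 was called without aged replicate 1, 2 or 4 or young replicate 4.

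Stress and wound genes of keratinocytes had 3 of 10 members higher and none lower, with a median of 0.44. Beside Krt6a, its relative Krt16 rose by 1.03 ± 0.21 and the EGF-family ligand Hbegf by 0.78 ± 0.15. Lcn2, an antimicrobial protein, differed by 1.47 without a call (adjusted p = 0.0845). Among 17 immediate early genes, which respond within minutes to stimulation, 3 rose, Egr3 by 1.0 ± 0.16, Egr2 by 0.50 ± 0.11 and Btg2 by 0.47 ± 0.13. Without aged replicate 2 or young replicate 4 that count was 1. In the list of senescence and secreted factors, Plaur, the urokinase receptor, was the 1 of 11 called (1.42 ± 0.25).

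The p53 targets were called in both directions, 5 higher and 3 lower of 17, with a median of 0.09. Trp53inp1, a stress-induced regulator of p53, read 11.05, 10.92, 10.97 and 10.96 in aged and 9.43, 10.06, 10.12 and 10.30 in young mice. The aged mice were tightly grouped above all young ones (1.00 ± 0.16), and the rise was specific to ZT4 with a departure of 1.06 ± 0.24 (adjusted p = 0.0149), against a difference of 0.54 at ZT0, a departure that was not called without young replicate 1 (adjusted p = 0.0673). Gadd45a, a growth arrest gene, read 9.58, 9.70, 9.56 and 9.67 in aged and 8.85, 8.84, 8.33 and 8.75 in young mice, a rise of 0.93 ± 0.12. Plk2 and Pmaip1 rose by 0.77 and 0.63. Bbc3 (-0.79 ± 0.13), Phlda3 (-0.57) and the ectodysplasin receptor Eda2r (-1.03) fell. Cdkn1a, the classical arrest target, differed by -0.05 ± 0.10. Without aged replicate 1, 2 or 3 or young replicate 2, 3 members were called higher, and without aged replicate 2 or young replicate 3 or 4, 1 was called lower.

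In lists of proliferation and energy metabolism, few or no genes were called, beside shares of 3.52% higher and 4.24% lower among all genes tested. No gene of 23 for G2 and mitosis and none of 25 for oxidative phosphorylation was called by limma, and none of either list reached an unadjusted p under 0.05. The median differences were -0.13 and -0.04. Of the 23 G2 and mitosis genes, 5 had a difference above 0, against 5961 of 12823 among all genes tested. The mean of that list ran from 5.76 to 7.16 in aged and from 6.29 to 6.86 in young arrays. With so wide a spread, the lack of calls does not show equal levels. Of 27 S phase genes, Mcm4, a subunit of the replicative helicase, rose (0.59 ± 0.12). Of 14 glycolytic genes, hexokinase 2 (Hk2) rose (0.67 ± 0.12), and none of 10 folate and serine genes was called (1 at an unadjusted p under 0.05). In DNA repair, 2 of 24 fell, Xpc by -0.52 ± 0.12 and Apex1 by -0.35 ± 0.09, and none was called without aged replicate 2 or without aged replicate 3. Of 21 genes of ribosome biogenesis, Nolc1 (0.79 ± 0.15) and Gar1 (0.45 ± 0.12) rose, and 1 of them was called without aged replicate 1, 2 or 4 or young replicate 3 or 4. Nolc1 departed from the mean of the other times, a departure not called without aged replicate 1 or 2 or young replicate 3 or 4 (adjusted p up to 0.162).

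Cholesterol synthesis had 3 of 15 members higher and a median of 0.24. They were Msmo1 (1.15 ± 0.18) and Idi1 (0.84 ± 0.19), enzymes of the pathway, and Insig1 (0.60 ± 0.17), which restrains it. With arrays centred on their median or scaled by cyclic loess, 5 members were called, and without aged replicate 2 or young replicate 2 it was 1. For the mean of the other 5 times, in the fit of 48 arrays, 13 of the 15 were called higher. No member of this list departed at ZT4, and its median departure was -0.12, so the rise was not particular to ZT4. Of 20 genes of the unfolded protein and ATF4 responses, Chac1 (1.12 ± 0.22), Herpud1 (0.59 ± 0.13) and Xbp1 (0.53 ± 0.11) rose, and with 1 spread estimated over 48 arrays 1 was called (adjusted p = 0.267 for Chac1 and 0.0549 for Xbp1). Herpud1 departed from the mean of the other times, but its difference at ZT20 was 0.55, close to that at ZT4, and the departure was not called without aged replicate 1, aged replicate 2 or young replicate 3 (adjusted p up to 0.102). In the Nrf2 list Srxn1 rose (1.31 ± 0.23) and Txnrd1 fell (-0.53 ± 0.14) of 17, the fall being called with aged replicate 1 or young replicate 3 left out and with no other array left out. In the autophagy and lysosome list Gpnmb rose (1.95 ± 0.25), while the autophagy genes Ulk1 (-0.74 ± 0.10, larger at ZT4) and Gabarapl1 (-0.44 ± 0.09) fell, of 16, with 1 fall called without aged replicate 2. Of 12 heat shock chaperones Bag3 fell (-0.57 ± 0.10), and of 12 genes of antigen presentation the regulator Nlrc5 fell (-0.41 ± 0.11), a call kept without young replicate 1 or young replicate 4 and lost without any other array.

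Of 16 basement membrane and adhesion genes, 3 were lower, against 4.24% of all genes tested. The collagen IV chains Col4a2 and Col4a1 differed by -0.86 ± 0.19 and -0.72 ± 0.18, and Frem2, a protein of the epidermal basement membrane, by -0.91 ± 0.25 with overlapping groups. Without aged replicate 2 none of the 3 was called, and without aged replicate 1 or young replicate 2, 3 or 4 it was 1. Of 19 Wnt genes, the receptor Fzd10 (-0.69 ± 0.14) and the polarity gene Prickle1 (-0.54 ± 0.13) fell, and 1 was called without aged replicate 1 or 2 or young replicate 3 or 4. Both departed from the mean of the other times, without being confined to ZT4. Fzd10 was also lower at ZT0 (-0.47 ± 0.16), and its departure was lost in 27 of 57 alternatives (adjusted p up to 0.311). Prickle1 was also lower at ZT20 (-0.46), and its departure was lost without aged replicate 1, aged replicate 2 or young replicate 3 (adjusted p up to 0.103). Of 14 Notch genes, the feedback inhibitor Nrarp fell (-0.65 ± 0.13). Of 19 TGF-beta and BMP genes, the ligand Tgfb1 (0.71 ± 0.16) and the receptor Tgfbr2 (0.55 ± 0.12) rose while Ltbp1 fell, and neither rise was called without aged replicate 1, aged replicate 2 or young replicate 3.

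**Figure D5:**
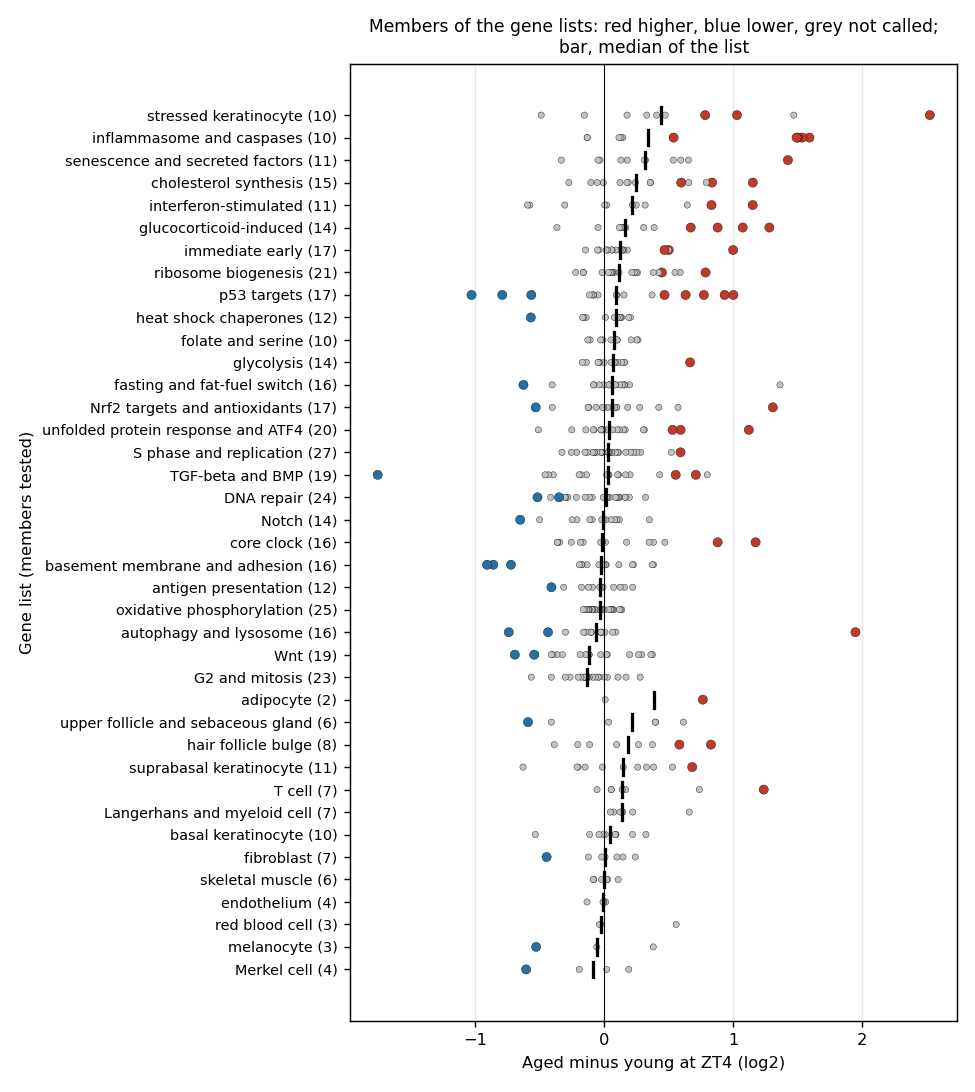
Log2 difference between aged and young at ZT4 (x axis) of every tested member of 39 gene lists (y axis, pathway lists above and cell type lists below), with red for genes called higher, blue for genes called lower, grey for genes not called and a bar at the median of the list. List medians run from -0.13 for G2 and mitosis to 0.44 for the stressed keratinocyte list, while single members reach 2.52 (Krt6a) and -1.76 (Ltbp1).

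Markers of other cells were compared in the same way. Of 7 T cell markers, Cd3e rose and none fell, and the mean of the list was 4.40 to 5.02 in aged and 4.25 to 4.46 in young arrays. Cd3e, a chain of the T cell receptor complex, read 5.12, 4.12, 5.46 and 6.28 in aged and 3.78, 4.04, 4.30 and 3.91 in young mice. Aged replicate 2 lay within the young range, the rise of 1.24 ± 0.34 had an adjusted p of 0.0482, and it was called with just 1 of the 8 arrays left out in turn. Cd3g differed by 0.74 (adjusted p = 0.108). The part of T cells in the results above was not tested. None of 7 Langerhans and myeloid markers was called (1 at an unadjusted p under 0.05), with list means of 5.86 to 6.44 in aged and 5.73 to 6.12 in young arrays.

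Of the remaining cell type lists, the follicle bulge had Sox9 (0.58 ± 0.13) and Ccn2 (0.83 ± 0.22) higher of 8, and neither was called without aged replicate 1, young replicate 3 or young replicate 4. The upper follicle and sebaceous gland list had the stem cell gene Lrig1 lower (-0.59 ± 0.13) of 6, not called without aged replicate 2. The suprabasal list had Tgm1, a cross-linking enzyme of the cornified layer, higher (0.68 ± 0.17) of 11. Tgm1 was not called without aged replicate 1 or 2 or young replicate 2, 3 or 4. The melanocyte gene Pmel fell by 0.53 at ZT4 against a mean of 0.25 at the other times, a departure of -0.78 ± 0.20. The call at ZT4 was lost without aged replicate 1, 2 or 4 or young replicate 2 or 4, and the departure without those 5 arrays or young replicate 3 and against ZT0 and ZT8 alone (adjusted p up to 0.184). Krt8 of the Merkel cell list differed by -0.61 ± 0.12, Col6a1 of the fibroblast list by -0.45 ± 0.12 and Pparg of the adipocyte list by 0.76 ± 0.18. Col6a1 was called with just aged replicate 3 left out, and Pparg was not called without aged replicate 1 or 4 or young replicate 2, 3 or 4. No endothelial, skeletal muscle or red blood cell marker was called, and none reached an unadjusted p under 0.05.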

How the data were processed

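RNA of epidermal stem cells from 48 mice was measured on 1-colour Affymetrix arrays, and 8 arrays entered the comparison at ZT4. The authors deposited a log2 value per probe set, made with RMA per the submitters' processing notes. RMA adjusts background, makes the arrays' distributions alike and so can hide a change shared by most genes. The version of RMA and whether both ages were normalised together were not given in the sources used here. Per the labels' protocols, cDNA was amplified before labelling, which can alter the size of differences.

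Of 45141 probe sets, 28898 have 1 gene symbol in the probe table, 551 have several and 15692 are not listed there and stay unnamed. Each of 17097 genes was given the probe set of highest mean over the 48 arrays, and the lowest 25% of genes (mean under 3.96) were left out, leaving 12823. Coordinates and sequences are from RefSeq, GRCm38.p6.

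The age difference at ZT4 came from the limma package (3.58.1, under R 4.3.3), with lmFit and eBayes on 8 arrays and 2-sided tests, and the departure of ZT4 from the mean of the other 5 times in a fit of 12 group means on 48 arrays. Benjamini-Hochberg adjustment ran over all 12823 genes, and calls needed an adjusted p under 0.05. Errors of differences are SEs of these fits. The number of arrays limits the precision.

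Named genes were the 10 largest rises and falls with groups that do not overlap, the 10 largest departures in each direction among genes past both tests, all measured members of the clock, glucocorticoid and fat-fuel lists, and up to 3 called members of each other list with the smallest p. Symbols of predicted genes or clones were left out. Casp12, Il33, Lcn2, Plk2, Pmaip1, Phlda3, Eda2r, Cd3g, Krt5 and Krt14 are named outside this rule, as are the genes in the closing observations. The 39 lists (26 of pathways, 13 of cell types) name 616 genes. The probe table lists 542 of them, and 483 passed the filter, with Il36a, Sc4mol and Ctgf looked up as Il1f6, Msmo1 and Ccn2. The comparison and the lists were chosen with earlier results of these data known. Per1 and Btg2 are each in 2 of the lists described.

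Mice of a group are numbered 1 to 4. The labels do not state that the numbers pair mice, so they were not taken to do so. Residuals of aged and young arrays of the same number at ZT4 correlated at -0.12, 0.08, 0.11 and -0.13. These values cannot show whether mice were paired. No 2 arrays held identical values. The alternatives were no filter or a filter on the lower 50% of genes, the mean of all probe sets, the replicate number as a block, arrays centred on their median, array weights, a robust eBayes with trend, cyclic loess, a change of at least 1.5-fold, 1 spread over 48 arrays, ZT0 and ZT8 as the reference times, and fits without 1 array.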

Additional observations from a re-analysis of the deposited data

Results flagged for a closer look

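In 254 groups of 4 values for the named genes, and in further groups for the array measures, 14 groups in all held 1 array far from the other 3. Chance gives about 1 in 20 such groups. Among the young mice, replicate 1 was low for Frem2 (6.92 against 7.60 to 7.64) and Clock (5.93 against 6.68 to 6.80) and high for Col4a1 (8.54 against 7.94 to 8.02). Young replicate 2 was low for Per2 (4.97 against 5.50 to 5.56) and high for Casp1 (6.64 against 5.97 to 6.08). Young replicate 3 was low for Herpud1 (9.43 against 9.88 to 9.94), Errfi1 (10.25 against 10.66 to 10.74) and Gpr35 (4.20 against 4.74 to 4.83). Among the aged mice, replicate 3 was high for Lrig1 (9.87 against 9.34 to 9.41) and replicate 4 low for Bhlhe40 (10.09 against 10.50 to 10.54). Aged replicate 2 was low for Mt1 (12.18 against 12.37 to 12.41), high for Msmo1 (6.28 against 5.49 to 5.62) and high for the actin 3' minus 5' signal (-0.10 against -0.17 in each of the other 3). Aged replicate 1 was low for the hybridisation controls (7.78 against 9.84 to 10.1), which are added to the sample before it is put on the array.

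The age difference at ZT4 departed from that of the other times for 31 named genes, by limma with Benjamini-Hochberg adjustment. On the log2 scale the downward departures were -2.13 for Apol8, -1.94 for Camk1g, -1.74 for Ripply3, -1.30 for Adam1a, -1.20 for Krt2, -1.16 for Irf4 and -1.09 for Crybb3. They were -1.07 for Bcl2l11, -1.07 for Ngfr, -1.06 for Foxq1, -0.78 for Pmel and -0.73 for Prickle1. Smaller ones were -0.67 for Bbc3, -0.66 for Fzd10, -0.56 for Ulk1 and -0.56 for Nlrc5. The upward departures were 1.74 for Rfx2, 1.72 for Mlf1, 1.70 for Tsc22d3, 1.68 for Fkbp5, 1.53 for Cdk5r1, 1.48 for Defb1 and 1.27 for Otud7a. They were 1.22 for Galnt3, 1.17 for Wee1, 1.09 for Cd3e, 1.06 for Trp53inp1 and 0.92 for Per2. Smaller ones were 0.82 for Per1, 0.66 for Nolc1 and 0.62 for Herpud1.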

How the results depend on the processing

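Of 88 named differences called at ZT4, 55 stayed past the threshold under every alternative tried and none turned direction, and of 31 named departures 14 stayed and none turned. The departures of Galnt3, Fkbp5, Nolc1, Prickle1 and Cdk5r1 each had 57 alternatives, counting fits without 1 array. They were lost in 19, 7, 5, 4 and 3 of these. However, 40 of the alternatives left out an array of another time. With 1 ZT4 array left out, Fkbp5 was lost without aged replicate 1, 2 or 3 or young replicate 2, 3 or 4. Nolc1 was lost without aged replicate 1 or 2 or young replicate 3 or 4. Some counts moved by over 1.5 times under 3 settings given next and in fits without 1 ZT4 array, and the cause was not tested. The count of specific genes higher in aged cells moved in 5 fits, each without 1 of the 8 ZT4 arrays. No fit without an array of another time moved a count this far. With array weights 694 genes were higher and 880 lower, 215 departed upward and 306 downward, and 109 specific genes were higher and 169 lower. With a change of at least 1.5-fold as well, 286 genes were lower and 22 specific genes higher. Against ZT0 and ZT8 alone, 37 genes departed upward and 51 downward, and 21 specific genes were higher and 32 lower. With 1 array left out, counts ran from 259 to 588 genes higher, 292 to 618 lower, 25 to 94 departing upward, 49 to 138 departing downward, 7 to 47 specific and higher and 26 to 69 specific and lower. With the replicate number as a block, 403 genes were higher and 412 lower, 77 and 106 departed, and 31 and 50 were specific. The labels do not state whether the numbers pair mice. Same-numbered residuals had a mean correlation of -0.00074 over all groups, which cannot show whether mice were paired. Genes called higher made up 45.3% of calls, 48.8% with arrays centred on their median and 49.6% with cyclic loess. With 1 spread over 48 arrays the p53 list had 3 members higher and the DNA repair, heat shock and glycolysis lists none called. Dim genes such as Cadps2, Krt2, Cldn7 and Il18, which lie near background in 1 of the ages, have less certain fold changes, and a shift common to most genes would not be seen in RMA values.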

Other observations

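Other genes specific to ZT4 were looked at after their values were seen. Etv5, a transcription factor downstream of FGF signalling, rose by 0.95 and Spred1, an inhibitor of Ras signalling, by 0.61, with means of 0.07 and 0.03 at the other times. Tead1, the DNA-binding partner of Yap, rose by 0.70, the adhesion gene Flrt3 by 0.86 and the Wnt pathway scaffold Apc by 0.53. Mphosph10, which takes part in ribosomal RNA processing, rose by 0.81 and Ruvbl1, an ATPase of snoRNP assembly, by 0.67. The lipoxygenase gene Alox12b, needed for the skin barrier, rose by 1.20 against a mean of 0.20 at the other times.

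Among the 57 specific falls were Cdc25b, the phosphatase that opposes Wee1 (-0.78 at ZT4 and 0.03 at the other times), the iron exporter Slc40a1 (-0.96), the receptor tyrosine kinase Erbb3 (-0.68) and the semaphorin Sema4c (-1.11). Wipi2, an autophagy gene, differed by -0.61. The other departures included 41 genes with no call at ZT4 itself. One was Trp63, the master regulator of basal keratinocytes, which differed by 0.32 ± 0.10 at ZT4 (adjusted p = 0.079) and departed by 0.40 (limma adjusted p = 0.0162) from a mean of -0.07. Its aged mice were all above its young mice at ZT4.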
